A study of Homo sapiens with 6 samples.

Results

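The loci described here are the ZNF genes of human chromosome 19, the C2H2 zinc finger genes whose symbol is ZNF followed by a number, as listed in the locus table of an RNA-seq experiment on SAM68 depletion. The rule that picks them reads symbol and chromosome and no measured value, although it was written with earlier results of these data known, and 238 of the 74852 loci of the table met that rule. MDA-MB-231, a human triple-negative breast cancer cell line of mesenchymal character, was transfected in 2 rounds with a non-targeting control siRNA (si-CTRL, 3 libraries) or with 4 pooled siRNAs that target SAM68, the RNA-binding protein encoded by KHDRBS1 (si-SAM68, 3 libraries), and harvested 24 h after the second round according to the labels, while the methods of the study give a different time. All 6 libraries thus come from a single line that received transfection reagent and siRNA, and no untransfected cells were compared. The labels do not say whether libraries of a group came from separate cultures, so that p-values measure only the spread between these libraries.

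C2H2 zinc finger genes form the largest family of transcription factors in the human genome, and chromosome 19 carries them in tandem clusters that grew by gene duplication. Most of them encode a KRAB domain near the N-terminus and an array of fingers, each of which contacts a few bases of DNA, joined by a conserved short linker. The KRAB domain recruits TRIM28 (also called KAP1), which brings in the histone methyltransferase SETDB1, HP1 proteins and the NuRD complex, and many of these proteins silence transposable elements. ZNF91, for instance, is known to repress SVA elements and ZNF93 certain LINE-1 elements.

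The pool against SAM68 is shown because every difference described here follows its transfection. Each siRNA is given as its sense strand, 5′ to 3′, and capitals mark the 7 bases that pair with guide positions 2 to 8, the seed. All 4 matched the coding sequence of KHDRBS1.
siSAM68_1: gcacccatatgGACGTTAt
siSAM68_2: gaaagagcgagTGCTGATa
siSAM68_3: tatgatggatgATATCTGt
siSAM68_4: aaagatctctgTATTGGGa

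The loci share a repeated sequence, and 1 finger unit of 5 of the loci named below is printed to show the repeated unit. Between pairs of these 5 units, 17 to 42 of the 98 bases differed, fewest between ZNF616 and ZNF28. Each run is 98 bases of coding sequence, 5′ to 3′ on the coding strand, taken from the GENCODE transcript (build GRCh38), and capitals mark the linker on either side of the finger. ZNF224 and ZNF616 were higher in si-SAM68, ZNF606 and ZNF28 were lower, and ZNF460 had the largest fold change upward.
ZNF224, chr19:44106839-44106936, plus strand: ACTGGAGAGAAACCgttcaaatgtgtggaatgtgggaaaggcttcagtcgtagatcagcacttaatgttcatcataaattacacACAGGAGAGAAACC
ZNF616, chr19:52115605-52115702, minus strand: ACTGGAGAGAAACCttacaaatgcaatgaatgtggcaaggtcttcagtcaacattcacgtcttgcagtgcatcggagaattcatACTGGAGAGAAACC
ZNF606, chr19:57979148-57979245, minus strand: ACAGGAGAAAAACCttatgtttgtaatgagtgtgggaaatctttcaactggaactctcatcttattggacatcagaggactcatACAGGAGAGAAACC
ZNF28, chr19:52800700-52800797, minus strand: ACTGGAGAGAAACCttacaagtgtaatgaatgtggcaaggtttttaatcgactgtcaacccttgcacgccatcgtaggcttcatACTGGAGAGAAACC
ZNF460, chr19:57291616-57291713, plus strand: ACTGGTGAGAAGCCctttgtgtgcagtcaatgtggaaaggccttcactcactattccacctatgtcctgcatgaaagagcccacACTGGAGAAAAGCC
The linker was searched on the coding strand as ACNGGNGANAANCC. It was present in 159 of the 187 tested loci with a coding transcript (85.0%), with a median of 6 copies, and in 3.36% of all 12635 tested coding loci, members included. The median number of fingers found was 12 and the highest was 31, in ZNF91. A KRAB pattern was found in the first 200 residues of 153 of the 187 loci.

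KHDRBS1 itself had normalised read counts of 15660, 14483 and 14737 in si-CTRL and of 583, 602 and 670 in si-SAM68, which left 4.13% of the control mean (exact permutation test, two-sided, p = 0.1, which is the lowest value this number of libraries can reach). The reads on all loci were between 52625492 and 82568487 per library, and the chromosome 19 ZNF loci took between 0.256% and 0.303% of them. In si-SAM68 replicate 2 the ribosomal RNA locus held 15.1% of the reads, against 1.83% to 3.17% in the other libraries. The identity of the line was checked with its markers. VIM was between 138300 and 173162, CD44, ZEB1, AXL and MSN were detected in every library, PGR was listed at 0, and ESR1, CDH1 and EPCAM did not exceed 15.2. ZEB1 was lower in si-SAM68, with a mean of 3314 against 5146 (log2 fold change -0.63, adjusted p = 0.0118 by limma). AXL was higher and MSN lower without overlap between the groups (adjusted p = 0.0969 and 0.291), and the groups overlapped for VIM and CD44. Of the markers of other cell types, PTPRC, CD3E and PECAM1 did not exceed 16.2 in any library, whereas COL1A1, listed as a fibroblast marker, was between 145926 and 181387 in si-CTRL and between 138281 and 175815 in si-SAM68.

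Of the 238 loci, 191 had a mean normalised read count of at least 10 and were tested, as were 18849 loci of the whole table. A further 19 had reads but fell below that mean, the closest to it being ZNF233 with a mean of 9.08 and ZNF137P with 8.55, and 28 were listed at 0 in all 6 libraries (11.8%, against 21.4% of the 23187 loci with a symbol). The loci at 0 were unevenly placed. The cluster next to the centromere, at chr19:19778962-24312767 (hg19), held 16 of them among its 36 listed loci (44.4%), and the remaining 202 loci held 12 (5.94%). ZNF93, ZNF85, ZNF43, ZNF208, ZNF676 and ZNF98 were among those 16, while ZNF91 in the same cluster had a mean of 788 in si-CTRL and 997 in si-SAM68. None of 20 housekeeping genes looked up in the table was at 0. A count of 0 allows up to 3 reads in a library, or 2.76 to 3.75 normalised reads, and this covers counting error only. How reads that fit several loci were handled is not given in the sources used here, so that a locus at 0 cannot be told apart from one whose reads were assigned elsewhere.

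The tested loci spanned a wide range of levels, from a mean of 10.9 for ZNF90 and 13.5 for ZNF491 to 15479 for ZNF146, with a median of 645, close to the 610 of all tested loci. In mean reads per kb of the reference transcript, which allows levels to be compared between genes, ZNF146 was highest at 4095. It was followed by the joined locus ZNF586 // ZNF587 // ZNF587B // ZNF776 at 2491, ZNF266 at 1199, ZNF302 at 1107 and ZNF358 at 877, against a median of 166 over the members. The 2 lowest loci had imprecise log2 fold changes of -0.78 (SE 0.46) for ZNF90 and 0.58 (SE 0.59) for ZNF491, with adjusted p of 0.308 and 0.572. The joined locus pools the reads of 4 genes and is divided by the length of 1 transcript, so that its level per kb is uncertain. ZNF146 encodes a protein made almost entirely of fingers, without a KRAB domain. Its normalised read counts were 15012, 15133 and 15023 in si-CTRL and 14788, 15576 and 17341 in si-SAM68, so that the groups overlapped (log2 fold change 0.08, SE 0.08, adjusted p = 0.574). Among the other highly expressed loci, ZNF266 and ZNF302 had log2 fold changes of 0.20 and 0.23 without overlap between the groups (adjusted p = 0.134 and 0.137), and the joined locus 0.10 (adjusted p = 0.398). ZNF358, a gene without the KRAB pattern whose transcript has a GC content of 69.1%, had a log2 fold change of -0.32 (adjusted p = 0.185), which became -0.16 without si-CTRL replicate 1 and -0.17 with the trend with GC content and length removed.

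The median of the chromosome 19 ZNF loci lay slightly above 0 in si-SAM68 vs. si-CTRL, and the large majority of them stayed under the fold change of 1.5 that the study used to call a gene. The median log2 fold change was 0.12, with quartiles of -0.03 and 0.26, and 134 of 191 (70.2%) had a positive value, whereas over all 18849 tested loci the median was 0.01 and 50.9% were positive. The ZNF loci of other chromosomes lay in between, with a median of 0.04 and 131 of 225 positive (58.2%). The other 805 tested chromosome 19 loci with a symbol lay on the opposite side, with a median of -0.09 and 34.4% positive. The values of the members and of these sets are given as a description and their differences were not tested. RNA was taken from bulk cultures, in which fewer cells of a kind and less RNA per cell cannot be told apart.

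At the thresholds of the study, a fold change of at least 1.5 and an unadjusted p not above 0.05, 1 of the 191 loci was called higher (ZNF460) and 1 lower (ZNF606), against 2.83% of all loci called higher and 4.83% called lower. With an adjusted p under 0.05 (limma, Benjamini-Hochberg over all loci), 11 loci were higher and 2 lower, or 5.76% and 1.05% of the members, against 4.47% and 6.23% of all loci. The share called higher was thus near that of the whole table, and the share called lower was below it. Of the loci with an unadjusted p under 0.05, 48 were higher (25.1%) and 10 lower (5.24%), against 12.8% and 14.1% of all loci. The libraries of the groups did not overlap in 60 loci that were higher (31.4%) and 10 that were lower (5.24%), against 16.6% and 17.3% of all loci. The fold change of these 60 was between 1.03 and 1.54, with a median of 1.26.

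The 13 loci with an adjusted p under 0.05 depended on the model and on single libraries. With the replicate number as a block, 6 were higher and 2 lower, against 3.88% and 5.12% of all loci. ZNF426, ZNF823, the joined locus ZNF564 // ZNF709, ZNF224, ZNF28 and ZNF606 kept the call, ZNF136 and ZNF460 gained it, and the remaining 7 lost it. The number was 26 without si-CTRL replicate 1, 7 without si-CTRL replicate 2 and 5 without si-CTRL replicate 3, and 4, 2 and 3 without si-SAM68 replicates 1, 2 and 3. The share of all loci passing in these fits is not given here, so that the numbers show nothing particular to the members. ZNF224 and ZNF606 were the 2 loci with an adjusted p under 0.05 in each of these 6 fits. All 13 passed in edgeR and in DESeq2 on the recovered reads, where 16 and 27 members passed. In limma with eBayes without trend, 3 members passed, 2 higher and 1 lower. The share of all loci is not given for these settings either.

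**Figure D1:**
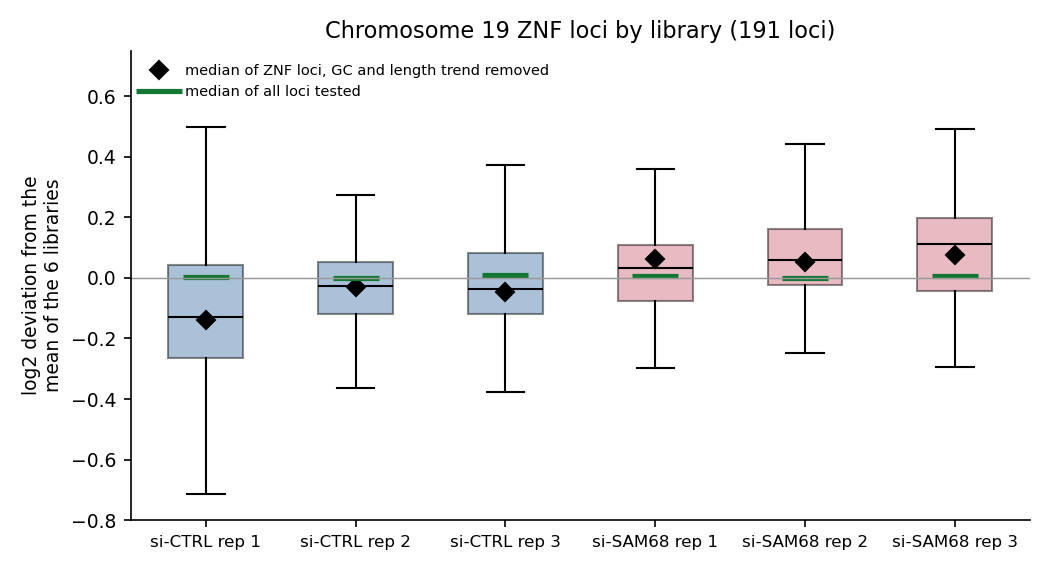
Log2 deviation of the 191 tested chromosome 19 ZNF loci from their mean over the 6 libraries (y axis) in each library (x axis), where boxes give the quartiles and median, whiskers reach the last value within 1.5 times the interquartile range, diamonds give the median after removal of the trend with GC content and length (190 loci), and green bars the median of all loci tested. The medians were -0.13, -0.03 and -0.04 in si-CTRL and 0.03, 0.06 and 0.11 in si-SAM68.

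The values were examined library by library, because the libraries differed in how their counts followed GC content. As shown in the plot of deviations by library, the median of the members was -0.13, -0.03 and -0.04 in the 3 si-CTRL libraries, in order of replicate number, and 0.03, 0.06 and 0.11 in the si-SAM68 libraries. Every si-SAM68 library thus lay above every si-CTRL library, with si-CTRL replicate 1 the lowest, and the median of all tested loci stayed between -0.002 and 0.009. The number of members above their own mean was 64, 77 and 74 in si-CTRL and 115, 136 and 132 in si-SAM68. Taken one at a time against the 3 si-CTRL libraries, si-SAM68 replicate 1 had 75 members above all 3 (39.3%, against 29.6% of all loci). Replicate 2 had 100 (52.4%, against 30.2%) and replicate 3 had 102 (53.4%, against 31.9%).

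The trend with GC content moved in part with the groups. The log2 deviation per 10% GC was 0.043, 0.030 and 0.037 in si-CTRL and 0.037 in si-SAM68 replicate 1, whereas it was -0.046 in si-SAM68 replicate 2 and -0.100 in replicate 3. The members are poorer in GC than most loci, with a median of 42.6% in the reference transcript against 48.9% over all tested loci and 60.5% over the other chromosome 19 loci. In si-SAM68 replicate 1, whose slope with GC content resembled that of the controls, the members had a median difference of 0.08 from the si-CTRL mean (log2 scale). It was 0.13 in replicate 2 and 0.18 in replicate 3. The fitted trend with GC content and length had a median at the members of -0.015, -0.019 and 0.013 in si-CTRL. In si-SAM68 it was -0.035, -0.001 and 0.056, so that replicate 1 was not free of it. When the trend with GC content and length was removed within each library, the medians of the members were -0.14, -0.03 and -0.05 in si-CTRL and 0.06, 0.05 and 0.08 in si-SAM68, so that the si-SAM68 libraries still lay above the si-CTRL libraries and the order of si-SAM68 replicates 1 and 2 turned.

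After this removal the median log2 fold change of 190 members was 0.12 and 142 were positive, against a median of 0.03 over all 14094 loci with a reference transcript. With an adjusted p under 0.05, 19 members were higher (9.61% of all loci were) and 2 lower (8.01% of all loci were). The same loci with the trend kept gave 17 higher and 2 lower, against 5.77% and 8.66% of all loci. The share of members called higher was thus near that of the whole table once the trend was removed. Without overlap between the groups, 58 were higher and 9 lower, against 22.6% and 17.3% of all loci. With both the removal and the replicate block, 13 were higher and 2 lower, against 6.63% and 6.12% of all loci, so that the share called higher was again near that of the whole table.

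**Figure D2:**
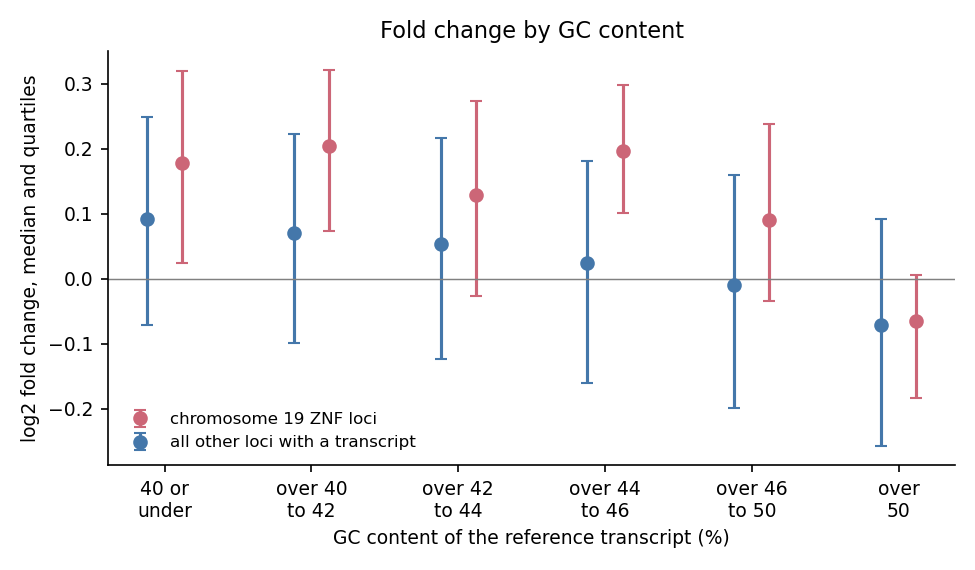
Median (points) and quartiles (bars) of the log2 fold change si-SAM68 over si-CTRL (y axis) in bins of the GC content of the reference transcript in percent (x axis), for chromosome 19 ZNF loci and for all other loci with a transcript. The members lay above the other loci in the 5 bins up to 50% GC, with medians between 0.09 and 0.20, and near them above 50% GC, with -0.06 against -0.07.

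Loci of the same GC content were also set side by side, as in the plot of fold change by GC content. At a GC content of at most 40%, the median was 0.18 over 46 members and 0.09 over 2037 other loci. From 40% to 42% it was 0.20 over 34 members and 0.07 over 1190 others, and from 42% to 44% it was 0.13 over 39 members and 0.05 over 1137 others. Between 44% and 46% the 19 members had a median of 0.20 and 18 of them were positive, while the 1055 others had 0.02. From 46% to 50% it was 0.09 over 22 members against -0.01 over 1886 others. Over 50% GC, 30 members had a median of -0.06 and the 6599 other loci -0.07.

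The loci with and without the KRAB pattern differed in their medians. The 153 loci with the pattern had a median log2 fold change of 0.15, 116 of them were positive, and 55 were higher and 6 lower without overlap between the groups (35.9% and 3.92%, against 16.6% and 17.3% of all loci). The 34 loci without it had a median of -0.02 with 15 positive, and 4 were higher and 4 lower without overlap (11.8% each), both below the share of all loci. All 13 loci with an adjusted p under 0.05 carried the pattern, as did 153 of the 187 members with a coding transcript. Of these 153, 7.19% were higher and 1.31% lower at that threshold, against 4.47% and 6.23% of all loci. The loci without the pattern were richer in GC (median 60.1%, against 42.3%), and with the GC and length trend removed the medians were 0.13 with the pattern and 0.05 without it. A like order was seen for the ZNF loci of other chromosomes, where 87 with the pattern had a median of 0.10 and 132 without it -0.01. The difference between loci with and without the pattern was not tested.

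**Figure D3:**
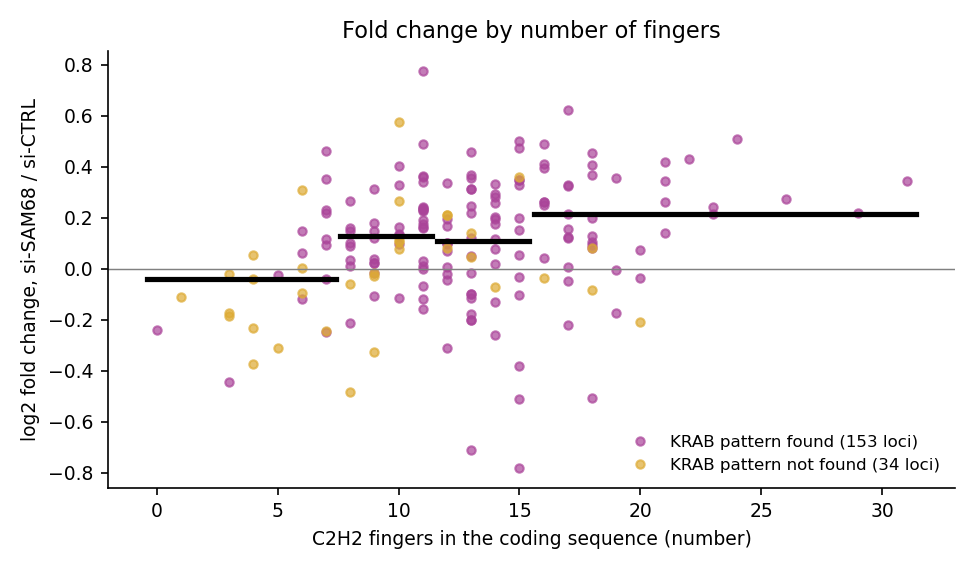
Log2 fold change si-SAM68 over si-CTRL (y axis) of the 187 chromosome 19 ZNF loci with a coding transcript against the number of C2H2 fingers found in the coding sequence (x axis), coloured by the KRAB pattern, with black lines for the median of loci with up to 7, 8 to 11, 12 to 15 and 16 or more fingers. The medians were -0.04, 0.13, 0.11 and 0.21.

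By number of fingers, the 27 loci with at most 7 had a median of -0.04 and those with 16 or more, 46 loci, a median of 0.21, with 37 positive. The 54 loci with 8 to 11 fingers and the 60 with 12 to 15 had medians of 0.13 and 0.11. In order of increasing finger number, 5, 14, 20 and 20 loci were higher without overlap between the groups (18.5%, 25.9%, 33.3% and 43.5%, against 16.6% of all loci), and 4, 1, 4 and 1 were lower (14.8%, 1.85%, 6.67% and 2.17%, against 17.3%). The group with the fewest fingers had a median GC content of 52.4% and the group with the most 41.0%, and with the GC and length trend removed the medians were 0.03 and 0.18. The loci in the lowest quartile of mean counts had a median of 0.01, and those in the other quartiles 0.15, 0.09 and 0.15.

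**Figure D4:**
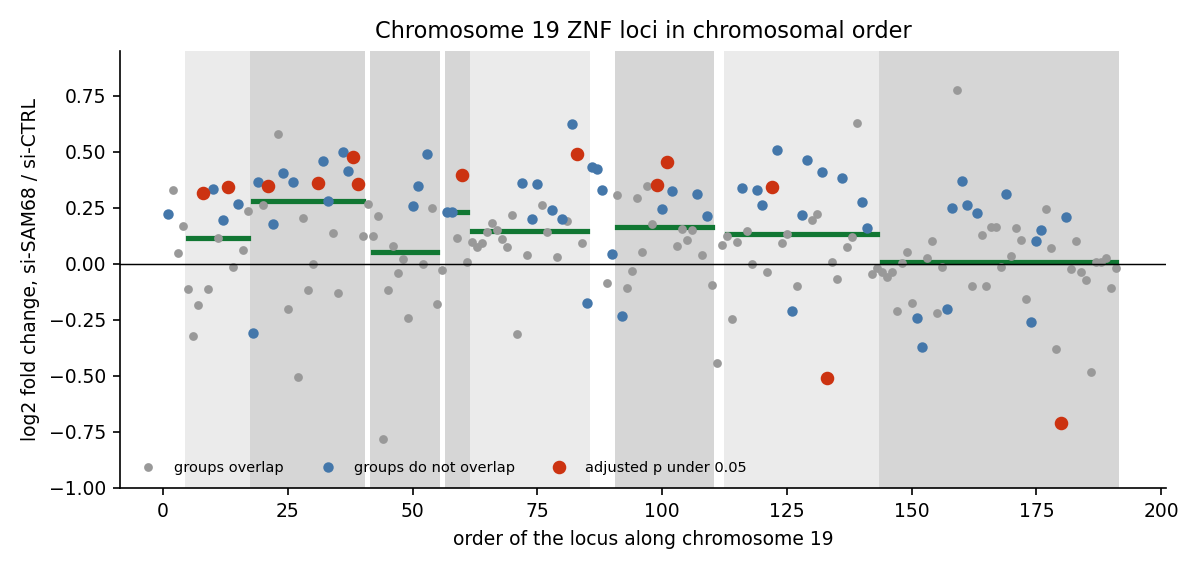
Log2 fold change si-SAM68 over si-CTRL (y axis) of the 191 tested loci in their order along chromosome 19 (x axis), with shaded blocks for the 8 clusters of at least 5 tested loci, green lines for the median of each, blue points for loci whose groups do not overlap and red points for an adjusted p under 0.05. The second cluster had the highest of these medians, 0.28, and the last one the lowest, 0.01.

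Along the chromosome the loci formed 8 clusters with at least 5 tested members, when neighbours over 1 Mb apart were parted. Coordinates are those of the table, build hg19. The cluster at chr19:11562143-12740676, on the short arm, had the highest median of the 8, 0.28 over 23 loci, with 17 positive. Without overlap, 12 of its loci were higher and 1 lower (52.2% and 4.35%, against 16.6% and 17.3% of all loci). It held 4 of the 11 loci that were higher with an adjusted p under 0.05 (17.4% of its loci, against 4.47% of all loci). The 5 loci at chr19:35168544-35454953 were all positive with a median of 0.23, and 22 of the 24 at chr19:36668520-38307940 were positive with a median of 0.15. The clusters at chr19:7069455-9879410 (13 loci), chr19:44029649-45579845 (20 loci) and chr19:52074490-54083523 (31 loci) had medians of 0.12, 0.16 and 0.13. The cluster next to the centromere had a median of 0.05 over 14 tested loci, which became -0.01 with the GC and length trend removed.

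The cluster next to the long-arm telomere, at chr19:55987699-59000899, was the largest with 48 tested loci and had a median of 0.01 and 25 positive values. Without overlap, 8 of its loci were higher and 5 lower (16.7% and 10.4%, against 16.6% and 17.3% of all loci). The share higher was thus near that of all loci. Its loci had a median GC content of 47.8% and 34 of the 48 carried the KRAB pattern, and with the GC and length trend removed its median was 0.10. TRIM28 lies just beyond this cluster. A group of 3 genes at chr19:40502943-40596845, singled out after its values were seen, was higher in all 3 without overlap, against 16.6% of all loci. ZNF546 had 230, 296 and 294 in si-CTRL and 355, 381 and 363 in si-SAM68 (log2 fold change 0.43, adjusted p = 0.064). ZNF780B had log2 0.42 and ZNF780A 0.33 (adjusted p = 0.144 and 0.18), and none of the 3 passed the adjusted threshold. The differences between clusters were not tested.

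**Figure D5:**
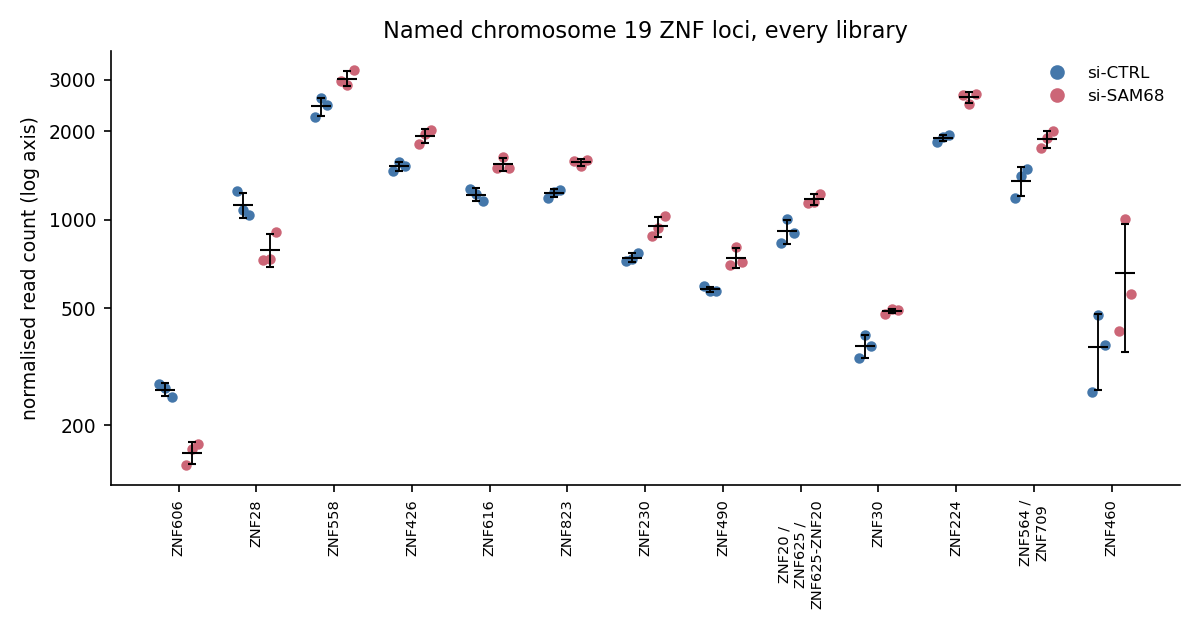
Normalised read counts (y axis, log scale) of the 12 named loci with an adjusted p under 0.05 and of ZNF460 (x axis) in every library, with blue points for si-CTRL, red points for si-SAM68, and black bars for the mean ± SD of 3 libraries. The groups do not overlap for the 12 loci, 10 of which were higher and 2 lower in si-SAM68, and overlap for ZNF460.

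The locus that rose with the smallest adjusted p was ZNF224 (chr19:44598482-44613983), which encodes a KRAB repressor known to act on the aldolase A gene and to bind WT1. Its normalised read counts were 1847, 1921 and 1939 in si-CTRL and 2664, 2487 and 2679 in si-SAM68, so that the groups lay well apart. The means were 1902 ± 48.7 and 2610 ± 106 (SD, n = 3), a log2 fold change of 0.46 (SE 0.08, adjusted p = 0.0068, limma), or 1.37-fold. Leaving out each library in turn gave log2 values between 0.43 and 0.49, and the adjusted p was 0.019 with the replicate block. A transcript on the same stretch that has no symbol had a mean of 76.9, and the strand used in counting is not given.

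In the cluster at chr19:11562143-12740676, the joined locus ZNF564 // ZNF709 had 1187, 1406 and 1484 in si-CTRL and 1753, 1892 and 2003 in si-SAM68 (log2 fold change 0.47, SE 0.10, adjusted p = 0.0199). Its reads cannot be divided between both genes, and it overlaps ZNF490, which had 594, 571 and 573 in si-CTRL and 702, 810 and 718 in si-SAM68 (log2 fold change 0.36, adjusted p = 0.0447, or 0.07 with the replicate block). ZNF823 had 1190, 1247 and 1263 in si-CTRL and 1584, 1521 and 1601 in si-SAM68 (log2 fold change 0.35, SE 0.08, adjusted p = 0.0244). The libraries of ZNF823 lay within a narrow range in each group, and no other locus with reads overlaps it. The joined locus ZNF20 // ZNF625 // ZNF625-ZNF20 went from a mean of 915 to 1173 (log2 fold change 0.36, adjusted p = 0.0427, or 0.0589 with the replicate block). ZNF136, which gained the call with the block, had a log2 fold change of 0.46 (adjusted p = 0.052, or 0.027 with the block).

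In the cluster at chr19:7069455-9879410, ZNF426 had 1470, 1578 and 1526 in si-CTRL and 1812, 1960 and 2030 in si-SAM68 (log2 fold change 0.34, SE 0.08, adjusted p = 0.0295). ZNF558 rose from 2434 ± 174 to 3025 ± 179 (SD, n = 3; log2 fold change 0.31, adjusted p = 0.0453 by limma, or 0.063 with the replicate block). ZNF616, in the cluster at chr19:52074490-54083523, had 1276, 1224 and 1155 in si-CTRL and 1503, 1631 and 1501 in si-SAM68 (log2 fold change 0.34, adjusted p = 0.0329, or 0.0509 with the block). Its 21 fingers are more than the median of the loci. ZNF230, a neighbour of ZNF224 in the same cluster, had a log2 fold change of 0.35 (adjusted p = 0.0436, or 0.0547 with the block) and ZNF30 one of 0.40 (adjusted p = 0.0439, or 0.0623 with the block). ZNF571, the eleventh locus higher with an adjusted p under 0.05 and named after its values were seen, had 186, 157 and 170 in si-CTRL and 243, 246 and 231 in si-SAM68 (log2 fold change 0.49, adjusted p = 0.038). It lost the call with the block (adjusted p = 0.063) and with the GC and length trend removed (adjusted p = 0.051), and it lies within the joined locus ZNF540 // ZNF571-AS1, whose means were 31.6 and 47.6.

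Against the direction of most members, ZNF606 (chr19:58478158-58516313) fell. It had 276, 268 and 249 in si-CTRL and 146, 166 and 172 in si-SAM68, a mean of 265 ± 14.0 against 162 ± 13.7 (SD, n = 3; log2 fold change -0.71, SE 0.13, adjusted p = 0.0092 by limma). It was the 1 member past both the study's fold change and the adjusted threshold, with log2 values between -0.76 and -0.64 when each library was left out. An overlapping transcript without a symbol had a mean of 63.3. ZNF28 (chr19:53300659-53324922) had 1251, 1083 and 1039 in si-CTRL and 727, 738 and 909 in si-SAM68 (log2 fold change -0.51, SE 0.12, adjusted p = 0.0242). Its lowest si-CTRL library was above its highest si-SAM68 library. No other tested locus overlaps ZNF28. Neither gene has a match to the seeds of the 4 siRNAs in its coding sequence or its 3′ untranslated region. Among the named loci higher with an adjusted p under 0.05, matches were mixed. ZNF224, ZNF230, ZNF426, ZNF616 and ZNF564 // ZNF709 have one in the 3′ untranslated region, and ZNF426 also in its coding sequence. ZNF558, ZNF823, ZNF20 // ZNF625 // ZNF625-ZNF20, ZNF490 and ZNF30 have none. Of the members with a coding transcript, 26.7% have a match in the 3′ untranslated region. A part of the seeds in these values was not tested.

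ZNF460 (chr19:57791419-57805436) was the locus called higher at the study's thresholds. Its counts were 260, 476 and 376 in si-CTRL and 420, 1004 and 557 in si-SAM68, so that the groups overlapped and the value of si-SAM68 replicate 2 stood far above the others. The log2 fold change was 0.78 (SE 0.30, adjusted p = 0.13), and with each library left out it was between 0.43 and 1.05. Replicate 2 was the highest library in both groups, and with the replicate number as a block the adjusted p was 0.0166. ZNF91, named for its known role, had 895, 777 and 693 in si-CTRL and 932, 1013 and 1047 in si-SAM68. These groups did not overlap, and the log2 fold change of 0.35 did not pass the adjusted threshold (adjusted p = 0.078).

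Matches to the seeds of the siRNA pool were no more frequent in the members than elsewhere. A match of 7 bases in the 3′ untranslated region was found in 50 of the 187 loci (26.7%, against 28.7% of all tested coding loci), and one in the coding sequence in 22 (11.8%, against 28.1%). The median log2 fold change was 0.15 with a match in the 3′ untranslated region and 0.11 without, and 0.04 with a match in the coding sequence and 0.12 without. With the GC and length trend removed these medians were 0.114 and 0.116, and 0.095 and 0.119. Among all tested coding loci with a match in the 3′ untranslated region, 5.79% were higher and 11.1% lower with an adjusted p under 0.05. Without such a match the shares were 4.98% and 6.80%. Among the members they were 10.0% and 0.0% with such a match, and 4.38% and 1.46% without. These differences were not tested. The loci overlapped by another locus with reads, 77 of the 191, had a median of 0.13 and the other 114 a median of 0.11.

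Among 20 genes of the co-repressor machinery with which KRAB proteins act, all of them tested, none was higher and 2 were lower with an adjusted p under 0.05, against the 4.47% and 6.23% of all loci. Without overlap between the groups, 4 were higher and 5 lower, which for 20 genes is near the 16.6% and 17.3% of all loci, and none was called at the study's thresholds. TRIM28, the scaffold that the KRAB domain binds, had 18861, 21323 and 20932 in si-CTRL and 20753, 18539 and 18176 in si-SAM68, so that the groups overlapped (log2 fold change -0.09, SE 0.08, adjusted p = 0.528). SETDB1, the methyltransferase that deposits H3K9 trimethylation, had 1185, 1207 and 1198 in si-CTRL and 1581, 1506 and 1359 in si-SAM68. These groups did not overlap (log2 fold change 0.31, SE 0.09), and the adjusted p of 0.0535 lay at the threshold. Whether it passed depended on the setting. It was 0.0452 in edgeR and 0.0203 in DESeq2, and in limma 0.0438 with a minimum mean of 50, 0.0462 with quantile normalization and 0.01 with the GC and length trend removed (log2 fold change 0.40), but 0.0738 with the replicate block and with a library left out it was 0.0369 without si-CTRL replicate 1 and above the threshold, at up to 0.187, without any of the others.

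DAXX, a chaperone of the histone variant H3.3 that works with ATRX, fell from 11771 ± 885 to 9104 ± 110 (SD, n = 3; log2 fold change -0.37, adjusted p = 0.0161 by limma). UHRF1, which guides DNMT1 to newly replicated DNA, had 16658, 15062 and 15165 in si-CTRL and 12802, 12394 and 11644 in si-SAM68 (log2 fold change -0.35, adjusted p = 0.0199). With the GC and length trend removed, DAXX had a log2 fold change of -0.25 (limma, adjusted p = 0.0235, or 0.0587 with the block added). UHRF1 had -0.33 (limma, adjusted p = 0.0052, or 0.0206 with the block added). In limma with eBayes without trend, neither passed (adjusted p = 0.0684 for DAXX and 0.0779 for UHRF1). Neither call held in every fit with a library left out. For DAXX the adjusted p was 0.0545, 0.0742 and 0.0781 without si-SAM68 replicates 1, 2 and 3, and for UHRF1 it was 0.0807 and 0.097 without si-SAM68 replicates 2 and 3.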

How the data were processed

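RNA of MDA-MB-231 cells was sequenced as polyadenylated, single-end libraries, 3 for si-CTRL and 3 for si-SAM68, grouped by the sample titles. What the authors deposited is a signal, namely the reads counted on each FAST DB locus (hg19) divided by the DESeq2 size factor of the library. The submitters' processing notes name STAR 2.4.0, Picard, SAMtools, FastQC and DESeq2, and the counting program and use of strand are not given in the sources used here. Whole reads were recovered for 100% of values (within 0.01 of a whole number), and the total of 52625492 to 82568487 reads per library with 3 libraries per group sets the precision.

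limma 3.58.1 in R 4.3.3 (lmFit, eBayes with trend) was fitted on log2(normalised count + 1) over 18849 loci whose mean was 10 or more, with Benjamini-Hochberg adjustment over all of them. Fold changes are on this scale, which understates the change of low loci. GC content, length, fingers, the KRAB pattern and linkers came from GENCODE transcripts (GRCh38) matched by symbol (190 of 191 members, 97.5% of tested loci with a symbol), used for sequence and not for position. Fingers and the KRAB pattern were read from translated coding sequences in place of RefSeq proteins, and the KRAB pattern was widened after the first version was seen to miss known members. A finger was C, 2 to 4 residues, C, 12 residues, H, 3 to 5 residues, H. The trend with GC content and length was a spline of 5 degrees of freedom per variable, fitted to each library.

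Named members were the loci called at the study's thresholds, up to 10 per direction with an adjusted p under 0.05 by mean, the 5 highest in reads per kb, and the 2 lowest and 2 highest in mean. Outside the members, KHDRBS1, TRIM28, SETDB1 and co-repressor genes past the adjusted threshold were named. The members and lists were chosen with earlier results of these data known. Libraries of the same number deviated together from their group means (correlations of 0.105, 0.231 and 0.125, against -0.125 to 0.007 for different numbers), so that the replicate numbers were taken to pair the libraries, and a blocked fit was added. This pairing was read from the same data that the blocked fit uses. Deviations from a group mean sum to 0, so that these correlations are not independent of each other. Replicates were checked to differ by more than sampling noise. Alternatives were pseudocounts of 0.1 and 5, other filters, TMM and quantile scaling, other eBayes settings, edgeR 4.0.16 and DESeq2 1.42.0 on recovered reads, trend removal, the block, and each library left out. The scripts were tested on simulated data.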

Additional observations from a re-analysis of the deposited data

How the results depend on the processing

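The median log2 fold change of the members was positive under every alternative run, between 0.11 and 0.15. The number of members called at the study's thresholds (2) was 1 with DESeq2, with robust eBayes, with loci overlapped by no other locus, and with an adjusted p under 0.05 in place of the unadjusted one, and between 3 and 6 with a library left out. The number with an adjusted p under 0.05 (13) was 27 with DESeq2, 21 with the GC and length trend removed, 3 with eBayes without trend, 7 without a filter, 8 with the replicate block, 7 with loci overlapped by no other locus, and between 2 and 26 with a library left out. With the block on the loci with a reference transcript, an alternative chosen after seeing the data, it was 12. The shares of all loci moved too. They were 4.47% higher and 6.23% lower in the main fit, 9.61% and 8.01% with the trend removed, and 3.88% and 5.12% with the replicate block. For the other settings the share of all loci with an adjusted p under 0.05 is not given here. Over all tested loci, 1445 were called at the study's thresholds, 1334 with DESeq2, 1440 with robust eBayes and between 1301 and 1831 with a library left out. It was 955 with the GC and length trend removed, 947 with this and the block, 2240 without a filter and 894 with the adjusted p. For loci overlapped by no other locus the number over all loci is not given here. The number of clusters (8) was 5 when neighbours had to lie over 2 Mb apart. At the adjusted threshold the block changed no call beyond those given beside the loci. At the study's thresholds 3 members were called with the block, 2 higher and 1 lower, against 1514 of all tested loci. For single genes, 431 results kept their side of the threshold, 79 lost it, 11 gained it and none changed direction. Except where fewer loci or libraries entered, the cause was not tested. Precision is limited by 3 libraries per group, and for members near a mean of 10 by the few reads behind them.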
